A study of Mus musculus with 37 samples.

Results

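The genes described here, Lcn2, Serpina3n, Timp1, Steap4, S1pr3, Cp, Cd44, Cebpd and Aspg, encode secreted proteins, receptors, enzymes and a transcription factor that reactive astrocytes are known to raise. They were picked by symbol through their Ensembl identifiers and make up 9 of the 21975 gene rows held by the table of each hemisphere. RNA was sequenced from cortical astrocytes of mice 4 months after controlled cortical impact (CCI), a piston blow to the exposed right parietal cortex, or after sham surgery, and CCI mice were divided by video-EEG into those that developed post-traumatic epilepsy (PTE+) and those that did not (PTE-). The ipsilateral cortex gave 5 sham, 10 PTE- and 4 PTE+ libraries, and the contralateral cortex gave 5 sham, 9 PTE- and 4 PTE+ libraries. The 37 libraries came from 20 mice, and 17 of these mice (5 sham, 9 PTE- and 3 PTE+) had a library from both sides. The genotype label reads WT CD31, whereas the methods describe male CD1 mice, and the labels name no transgene. Mice were given ketamine, xylazine and buprenorphine for surgery, and no drug treatment was compared. Sham mice also underwent craniectomy and received the recording electrodes, so that both were shared by all groups. Astrocytes were pulled from papain-dissociated cortex with beads against ACSA-2, a surface antigen of astrocytes, and the libraries therefore hold mixtures of astrocytes near to and far from the impact.

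Astrocytes respond to injury by changing shape and gene expression, a state called reactive, in which intermediate filament genes and acute-phase genes are raised. Acute-phase genes are so named because the liver raises many of them in inflammation, under cytokines of the IL-6 and IL-1 families that act through STAT3, NF-kB and C/EBP transcription factors. In brain, lipocalin-2 and the serine protease inhibitor Serpina3n are among the most widely used labels of reactive astrocytes after injury, seizures or endotoxin.

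The promoters of 5 of the genes are shown because Serpina3n, Cd44 and Aspg were higher together in the injured cortex, whereas Lcn2 and Steap4 were the least abundant of the 9 and listed at 0 in some libraries. Each sequence is the 250 bases before the RefSeq start in GRCm38.p6, read 5′ to 3′ on the strand of the gene, and capitals mark motif matches. The windows lie at chr2:32387740-32387989 (minus strand) for Lcn2, chr5:7960222-7960471 (plus strand) for Steap4, chr12:104406458-104406707 (plus strand) for Serpina3n, chr2:102901666-102901915 (minus strand) for Cd44 and chr12:112106433-112106682 (plus strand) for Aspg.
Lcn2: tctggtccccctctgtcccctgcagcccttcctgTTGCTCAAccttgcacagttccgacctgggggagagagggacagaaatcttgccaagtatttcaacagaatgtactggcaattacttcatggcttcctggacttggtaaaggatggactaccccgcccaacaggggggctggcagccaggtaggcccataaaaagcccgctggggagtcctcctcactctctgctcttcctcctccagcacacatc
Steap4: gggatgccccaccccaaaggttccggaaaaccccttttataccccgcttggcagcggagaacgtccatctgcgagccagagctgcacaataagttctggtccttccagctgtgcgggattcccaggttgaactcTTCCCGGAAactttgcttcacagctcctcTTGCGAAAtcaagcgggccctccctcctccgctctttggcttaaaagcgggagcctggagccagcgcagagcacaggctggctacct
Serpina3n: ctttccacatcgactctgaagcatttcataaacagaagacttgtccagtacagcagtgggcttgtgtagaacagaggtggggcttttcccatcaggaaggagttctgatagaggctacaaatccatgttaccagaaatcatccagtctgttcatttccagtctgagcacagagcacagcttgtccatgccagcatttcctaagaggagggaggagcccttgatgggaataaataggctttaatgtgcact
Cd44: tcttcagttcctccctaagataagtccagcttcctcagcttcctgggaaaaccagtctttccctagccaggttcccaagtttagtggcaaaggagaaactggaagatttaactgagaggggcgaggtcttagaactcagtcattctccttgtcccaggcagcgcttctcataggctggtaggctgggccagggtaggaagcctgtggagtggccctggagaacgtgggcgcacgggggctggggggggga
Aspg: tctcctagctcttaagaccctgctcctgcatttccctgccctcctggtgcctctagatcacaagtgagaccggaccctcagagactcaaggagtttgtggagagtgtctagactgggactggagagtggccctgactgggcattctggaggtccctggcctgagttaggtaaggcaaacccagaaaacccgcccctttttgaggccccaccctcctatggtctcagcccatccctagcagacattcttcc
The motifs searched on both strands were TTCNNNGAA for STAT, TTGCNNAA for C/EBP, the NF-kB consensus and TGANTCA for AP-1. They occurred in 7.02%, 9.56%, 0.36% and 6.75%, respectively, of 32851 RefSeq windows of the same length. The Lcn2 window held 1 C/EBP match and the Steap4 window held a STAT and a C/EBP match. The windows of Serpina3n, Cd44, Aspg, S1pr3 and Timp1 held none of these letters, and those of Cp held an AP-1 and a C/EBP match. A match is a description of letters and not a bound site, and RefSeq entries were found for 8 of the 9 genes.

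Expression was given in TPM, the abundance of a transcript per length scaled to a fixed total in each library, which keeps no read depth, so that the depth behind each value is unknown. The number of genes above 0 ranged from 10727 to 18319 in the ipsilateral libraries and from 15815 to 18534 in the contralateral ones. The lowest number belonged to the ipsilateral library of PTE- mouse 9_14, in which 2179 of 11301 genes above 1 TPM in every other ipsilateral library were listed at 0, against at most 1 in the other libraries. The estimates of the 9 genes in the ipsilateral comparisons of CCI with sham and of PTE+ with PTE- are therefore also given without it. The sum of 12 astrocyte markers lay between 15255 and 22800 TPM over all groups. Markers of other cells were present as well. The sum of 8 oligodendrocyte precursor markers lay between 1481 and 2666 TPM over all groups. The sums of 10 mural and 7 choroid plexus markers reached 5141 and 853 TPM, both in ipsilateral PTE- mice. In the ipsilateral cortex the sum of 12 oligodendrocyte markers had a median of 3100 TPM (range 522 to 4470) in sham mice. It was 774 to 2265 TPM in PTE- mice and 1186 to 2327 TPM in PTE+ mice. Of 10 tested markers 6 (Mog, Mag, Opalin, Ermn, Hapln2 and Tmem125) were lower in CCI, against 1.62% of all genes called in either direction. Opalin, Ermn, Hapln2 and Tmem125 had a mean above 5 TPM, the filter used below, only in sham mice, with CCI means of 1.58 to 3.29 TPM. The sum of 10 neutrophil markers was higher in sham mice 8_16 and 9_10 than in the other sham mice, at 15.99 and 7.67 TPM ipsilaterally and 33.1 and 12.7 TPM contralaterally, compared with at most 9.44 and 11.4 TPM in CCI mice. The part of these mixtures in the results below was not tested beyond leaving the named libraries out. In bulk RNA, fewer cells that express a gene and less RNA per cell cannot be told apart.

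Over all 37 libraries Serpina3n was the most abundant of the 9 genes, with a median of 73.8 TPM (range 35.8 to 180). S1pr3 followed at 27.5 TPM (11.8 to 69.1), and Aspg, Cp and Cebpd lay close together at 15.8, 15.3 and 13.7 TPM, with ranges that overlapped almost entirely. Cd44 reached 6.07 TPM (0.75 to 14.7). The medians of Timp1, Steap4 and Lcn2 were 2.53, 2.02 and 1.14 TPM, and each of these genes was listed at 0 in at least 1 library. Lcn2 reached from 0 to 78.6 TPM, as the plot of the 9 genes in each library shows.

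**Figure D1:**
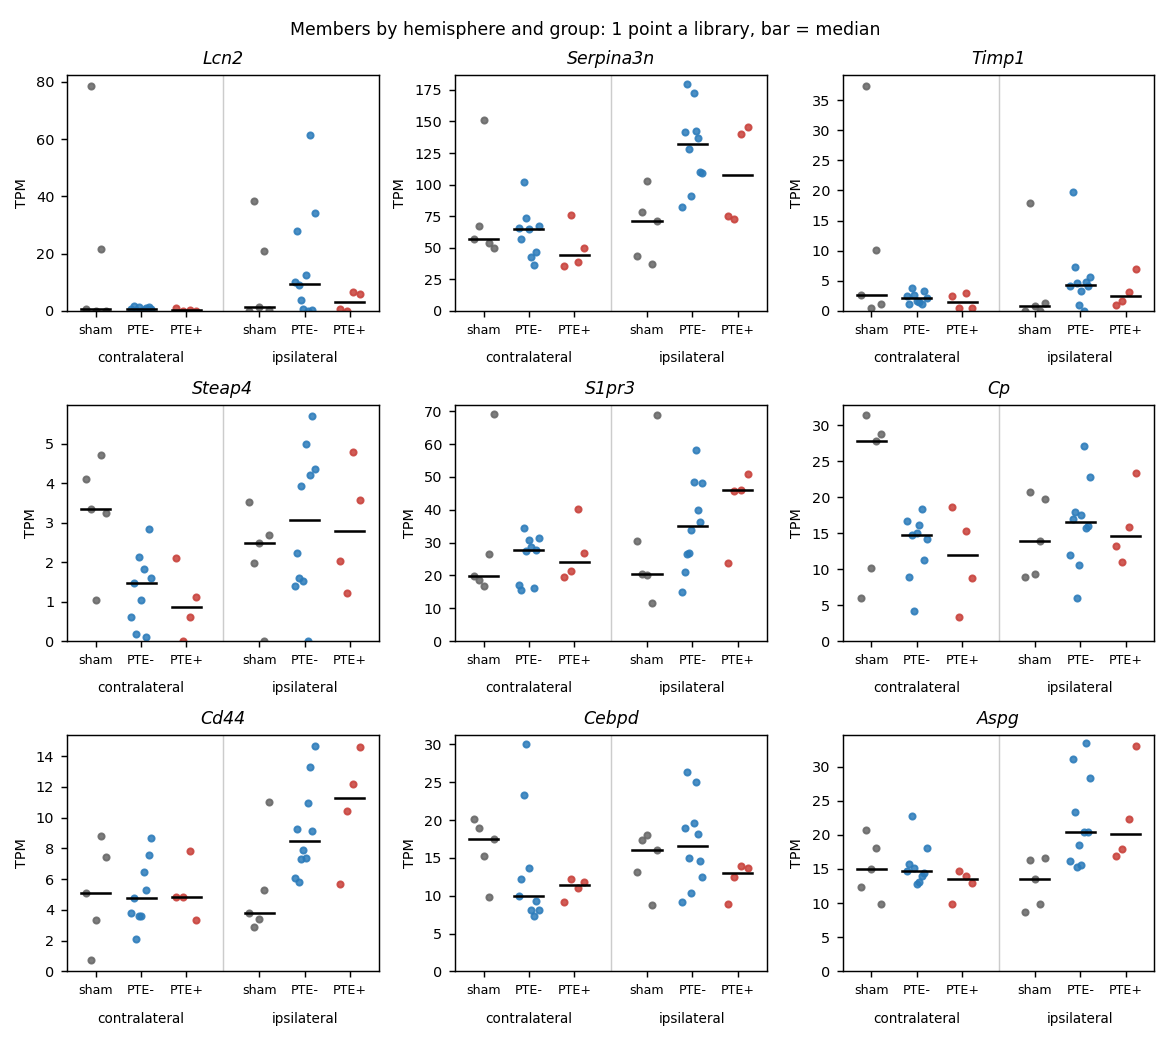
TPM of the 9 genes in each library by hemisphere and group (sham, PTE-, PTE+). Points are libraries and bars are group medians. Serpina3n lay between 35.8 and 180 TPM in every library, whereas Lcn2 ranged from 0 to 78.6 TPM and was highest in the contralateral cortex of a sham mouse.

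In the ipsilateral cortex, Serpina3n, Aspg and Cd44 were higher 4 months after CCI than after sham surgery, whereas Lcn2, Cp and Cebpd were not distinguishable between the groups. These were 3 of the 7 genes that passed the filter (mean above 5 TPM in at least 1 group compared), all higher, against 1.62% of all 10434 genes tested called in either direction and 1.24% called higher. A call here is an unadjusted limma p under 0.05 with a fold of at least 1.2, the thresholds of the study. The estimates of all 9 genes were above 0, with a median log2 difference of 0.45 compared with -0.01 over all genes tested. No gene of the table reached an adjusted p of 0.05 by limma (195 genes had an unadjusted p under 0.05), and the adjusted p of the members was 0.9997.

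Serpina3n, which inhibits serine proteases such as cathepsin G and granzyme B (Ensembl ENSMUSG00000021091, GRCm38 chr12:104406729-104414329, plus strand), was at 43.8, 78.1, 103, 37.0 and 71.3 TPM in the 5 sham mice. It ranged from 82.3 to 180 TPM, with a median of 133 TPM, in PTE- mice, and was at 75.1, 72.9, 140 and 146 TPM in the 4 PTE+ mice. Of the 14 CCI libraries, 10 lay above every sham library and all 14 above the sham median. The mean was 123 ± 34.3 TPM (SD, n = 14) in CCI and 66.6 ± 26.8 TPM (SD, n = 5) in sham. The log2 difference on the log2(TPM + 1) scale was 0.92 (SE 0.23, exact permutation p = 0.00215, two-sided).

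Aspg, which encodes an asparaginase (ENSMUSG00000037686, chr12:112106679-112127559, plus strand), was at 8.64, 16.3, 13.6, 9.88 and 16.6 TPM in sham mice. Its level in PTE- mice was between 15.4 and 33.4 TPM (median 20.4), and the 4 PTE+ libraries held 16.9, 17.9, 22.3 and 33.0 TPM. All PTE+ libraries and 11 of 14 CCI libraries exceeded every sham library, although the lowest PTE+ library (16.9 TPM) lay close to the highest sham library (16.6 TPM). How many other genes separate these groups in this way was not counted. The log2 difference between CCI and sham was 0.73 (SE 0.21, exact permutation p = 0.00206).

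Cd44, the cell surface receptor for hyaluronan (ENSMUSG00000005087, chr2:102811141-102901665, minus strand), was at 3.82, 2.88, 3.40, 5.31 and 10.99 TPM in sham mice. PTE- mice held 5.84 to 14.7 TPM (median 8.51) and PTE+ mice 5.69, 10.4, 12.2 and 14.6 TPM. Sham mouse 9_11 overlapped the injured groups, and only 4 of 14 CCI libraries lay above it, while the other sham libraries lay below every CCI library. The log2 difference was 0.83 (SE 0.27, exact permutation p = 0.00482). Without the library of mouse 9_14 the log2 differences of Serpina3n, Cd44 and Aspg were 0.90, 0.81 and 0.74, and all were still called. Those of the other genes were then 0.47 for Lcn2, 1.08 for Timp1, 0.48 for Steap4, 0.39 for S1pr3, 0.088 for Cp and 0.0022 for Cebpd, and none was called. Without sham mice 8_16 and 9_10 the Cd44 difference was 0.69 and was no longer called, whereas Serpina3n (0.78) and Aspg (0.74) were.

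The mouse names start with 8 or 9, and the labels do not say what this number marks. The log2 differences between CCI and sham within names starting with 8 (5 CCI, 2 sham) and within names starting with 9 (9 CCI, 3 sham) were 0.96 and 0.89 for Serpina3n, 0.84 and 0.78 for Cd44, and 0.69 and 0.74 for Aspg. S1pr3, the sphingosine 1-phosphate receptor 3 (ENSMUSG00000067586, chr13:51408639-51422797, plus strand), differed by -0.16 within names starting with 8 and by 0.78 within those starting with 9. Its ipsilateral CCI libraries held 15.1 to 26.9 TPM and 33.8 to 58.1 TPM in these name groups, which did not overlap. The name groups did overlap in ipsilateral sham (20.4 to 30.5 and 11.8 to 68.7 TPM) and in contralateral CCI libraries (15.7 to 34.4 and 16.3 to 40.3 TPM). How many other genes separate by the name number was not counted. Pooled, S1pr3 was 0.45 higher in CCI on the log2 scale and was not called, and it was called without sham mouse 9_11 (0.80), whose level of 68.7 TPM was above that of every other ipsilateral library.

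Lcn2, a lipocalin that binds iron-loaded siderophores (ENSMUSG00000026822, chr2:32384633-32388252, minus strand), was listed at 0, 38.3, 1.35, 21.0 and 0.44 TPM in the ipsilateral cortex of sham mice 8_15, 8_16, 9_9, 9_10 and 9_11. PTE- libraries ranged from 0, in mouse 9_14, to 61.3 TPM with a median of 9.57 TPM, and PTE+ libraries held 0.61, 0, 6.46 and 5.78 TPM. The groups overlapped throughout, and the log2 difference between CCI and sham of 0.27 had an SE of 1.01 (exact permutation p = 0.803). Timp1, an inhibitor of matrix metalloproteinases (ENSMUSG00000001131, chrX:20870166-20874735, plus strand), was listed at 0, 17.97, 0.84, 0 and 1.28 TPM in the same sham mice. It ranged from 0, again in mouse 9_14, to 19.7 TPM (median 4.39) in PTE- mice and was at 1, 1.72, 3.08 and 7 TPM in PTE+ mice. Sham mouse 8_16 stood apart from the other sham mice for Timp1, while for Lcn2 mouse 9_10 was also high. Timp1 was below the filter, and its log2 difference of 0.91 had an exact permutation p of 0.183. Without sham mice 8_16 and 9_10 the log2 differences were 1.99 for Lcn2 and 1.49 for Timp1, and neither was called.

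None of the remaining genes, of metal handling and transcriptional control, was called ipsilaterally. Steap4, a metalloreductase (ENSMUSG00000012428, chr5:7960457-7982213, plus strand), was listed at 3.52, 1.99, 2.48, 0 and 2.70 TPM in sham mice, between 0 (mouse 9_14) and 5.70 TPM (median 3.08) in PTE- mice and at 2.02, 1.22, 4.78 and 3.57 TPM in PTE+ mice, and was below the filter. Its log2 difference between CCI and sham was 0.34 (exact permutation p = 0.432), with 7 of 14 CCI libraries above every sham library, and was -0.23 within names starting with 8 and 0.70 within those starting with 9. Cp encodes the copper-dependent ferroxidase ceruloplasmin (ENSMUSG00000003617, chr3:19957054-20009145, plus strand) and was at 14.5 ± 5.60 TPM in sham (SD, n = 5), 16.3 ± 5.98 TPM in PTE- (SD, n = 10) and 15.9 ± 5.41 TPM in PTE+ (SD, n = 4). Cebpd encodes the transcription factor C/EBP delta (ENSMUSG00000071637, chr16:15887286-15891031, plus strand) and was at 14.7 ± 3.79, 16.9 ± 5.76 and 12.2 ± 2.33 TPM in these groups. The log2 differences between CCI and sham were 0.15 for Cp and 0.06 for Cebpd, and the groups of both genes overlapped.

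Each injured group was also compared with the same 5 sham mice, so that these comparisons are not independent of each other. Serpina3n, Cd44 and Aspg were called in both. In PTE- mice they were 3 of 8 tested genes (1.54% of all genes were called, and 1.17% called higher), with log2 differences of 1.003, 0.78 and 0.72. In PTE+ mice they were 3 of 7 (1.56% of all genes called, and 1.19% called higher), with log2 differences of 0.72, 0.96 and 0.74. The exact permutation p for PTE+ against sham was 0.119 for Serpina3n, 0.0556 for Cd44 and 0.0238 for Aspg, where the smallest p this design allows is 0.00794. The Cd44 call in PTE- mice was lost without sham mouse 8_16 (0.63) or 9_9 (0.68). Without PTE- mouse 9_14 there were 4 calls in PTE- mice, Timp1 being the gene added. The Serpina3n call in PTE+ mice was lost in 4 of 9 fits without a single library (PTE+ mouse 9_18 or 9_19, sham mouse 8_15 or 9_10, 0.53 to 0.59). It was also lost with no filter (0.72), quantile scaling (0.67), median centring (0.63), the first number of the mouse name as covariate (0.67) and without sham mice 8_16 and 9_10 (0.58). The Cd44 call in PTE+ mice was lost without sham mouse 8_16 (0.82), and the calls in PTE+ mice fell to 1 without PTE+ mouse 9_18, to 0 without PTE+ mouse 9_19 and to 1 without sham mice 8_16 and 9_10.

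**Figure D2:**
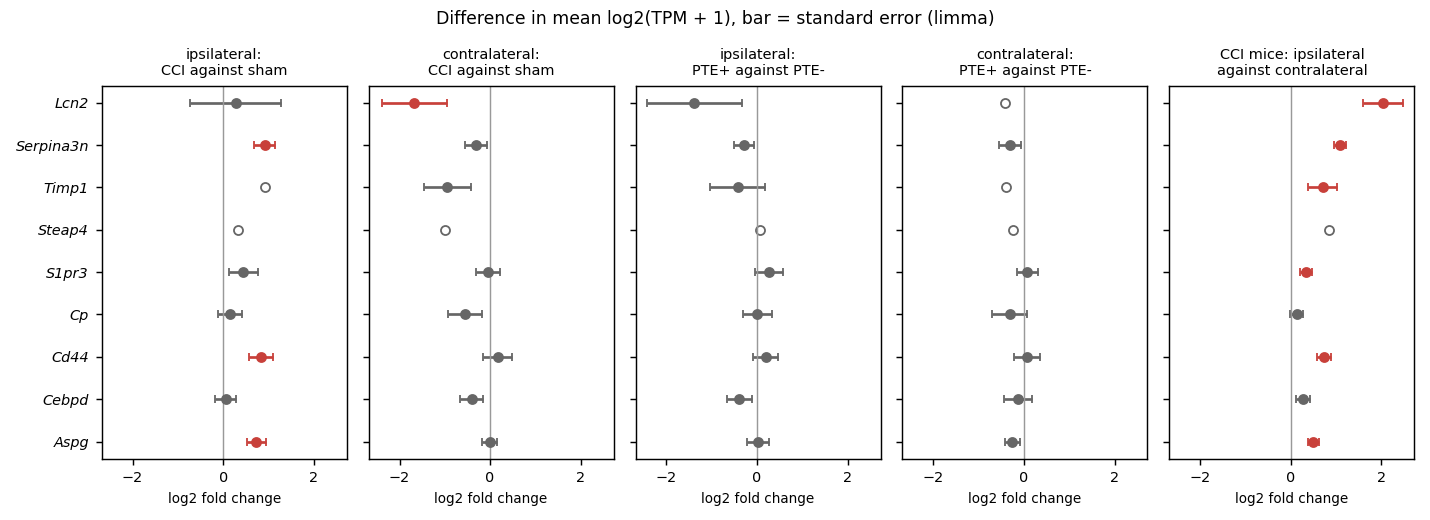
Differences on the log2(TPM + 1) scale of the 9 genes in 5 comparisons (ipsilateral and contralateral CCI against sham, ipsilateral and contralateral PTE+ against PTE-, and ipsilateral against contralateral in CCI mice). Points are limma estimates and bars are 1 SE, with red for genes called, grey for genes tested and not called, and open points without bars for genes below the filter. Serpina3n, Cd44 and Aspg were called in the ipsilateral comparison with sham and no gene was called between PTE+ and PTE- on either side.

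Injured mice with and without epilepsy were compared next, without the sham mice. In the ipsilateral cortex none of the 8 tested genes was called (limma, 0 at an unadjusted p under 0.05), against 0.573% of all genes, and none of the 9 reached an exact permutation p of 0.05. The log2 differences between PTE+ and PTE- ranged from -1.39 to 0.27, with a median of 0.12 over all genes tested. The estimate furthest from 0 was that of Lcn2, at -1.39 with an SE of 1.05 (exact permutation p = 0.251). Without mouse 9_14 it was -1.72, and the other genes were between -0.69 (Timp1) and 0.36 (S1pr3). The log2 differences of Serpina3n, Timp1 and Cebpd were -0.29, -0.43 and -0.39, those of Cd44 and S1pr3 were 0.19 and 0.27, and those of Steap4, Cp and Aspg lay between 0.01 and 0.06. With 4 PTE+ libraries, a p that misses the threshold does not show that these levels were alike.

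In the contralateral cortex the 3 genes raised on the injured side were not distinguishable between CCI and sham mice. Serpina3n was at 57.3, 67.3, 151, 54.2 and 50.2 TPM in sham mice, between 36.5 and 102 TPM (median 64.6) in PTE- mice and at 35.8, 75.7, 38.5 and 49.5 TPM in PTE+ mice. Sham mouse 9_9 was the highest of all contralateral libraries, and the other sham libraries lay within the range of the injured groups. Cd44 was at 5.08 ± 3.21 TPM in sham (SD, n = 5) and 5.13 ± 1.97 TPM in CCI (SD, n = 13), and Aspg was at 15.2 ± 4.32 and 14.8 ± 3.04 TPM. The log2 differences between CCI and sham were -0.32 for Serpina3n, 0.17 for Cd44 and -0.01 for Aspg.

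Of the 9 genes, Steap4 had the smallest exact permutation p between CCI and sham in the contralateral cortex. Sham mice held 4.11, 3.34, 1.05, 4.71 and 3.24 TPM, PTE- mice 0.11 to 2.85 TPM (median 1.46) and PTE+ mice 2.11, 0, 0.62 and 1.12 TPM. Apart from sham mouse 9_9, every sham library lay above every CCI library. Other genes that separate the groups in this way were not counted. Steap4 was below the filter and received no limma call, its log2 difference of -0.997 having an exact permutation p of 0.00747. The exact permutation p was 0.01998 for PTE- (-0.92) and 0.0397 for PTE+ (-1.17), both against the same sham mice.

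Of the 8 genes tested contralaterally, 1 was called between CCI and sham, the lower Lcn2, against 4.05% of all genes called and 3.51% called lower. The estimates of 8 of the 9 genes were below 0, with a median of -0.41 compared with -0.07 over all genes. Without sham mice 8_16 and 9_10, which held 78.6 and 21.7 TPM of Lcn2 while no other contralateral library exceeded 1.69 TPM, the log2 difference of Lcn2 was 0.37 and that of Timp1 was 0.34, and no gene was called. The Lcn2 call was also lost without either of these mice alone (-0.68 and -1.13). The sum of neutrophil markers was highest in the same libraries. Only 1 of the 10 neutrophil markers passed the filter, S100a9, which was lower in CCI (1.25 against 5.44 TPM, log2 difference -1.15). The neutrophil genes Camp and Mpo were at 0 in all 5 contralateral sham libraries. Of 11 tested meningeal and fibroblast markers 2 were also lower in contralateral CCI, Slc47a1 (2.43 against 13.9 TPM, log2 difference -1.37) and Prg4 (0.76 against 5.08 TPM, -1.27). S100a9, Slc47a1 and Prg4 passed the filter only through the sham mice, where they were high. The sum of the 12 meningeal and fibroblast markers ranged from 116 to 386 TPM in contralateral sham mice, with the highest sum in mouse 9_10, compared with 99.5 to 306 TPM in PTE- and 118 to 294 TPM in PTE+ mice. The part of these cells in the Lcn2 and Timp1 values was not tested.

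Between PTE- and sham no gene of 8 was called contralaterally (3.76% of all genes called). Between PTE+ and sham 1 of 8 was called (1.97% of all genes, and 1.48% called lower), Cebpd, at 9.14, 12.3, 11.01 and 11.8 TPM in PTE+ mice compared with 20.2, 18.95, 15.3, 9.82 and 17.5 TPM in sham mice. All PTE+ libraries lay below every sham library except that of mouse 9_10. The log2 difference was -0.50 (SE 0.23, exact permutation p = 0.0556), and the limma call was lost when any 1 library other than that of sham mouse 9_10 was left out. Between PTE+ and PTE- none of 6 tested genes was called (2.79% of all genes), with log2 differences of all 9 genes between -0.41 and 0.08 and exact permutation p-values from 0.115 to 0.842. Without PTE+ mouse 8_17, Serpina3n was called at -0.53.

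Both hemispheres of a mouse were then compared with each other. In the 12 CCI mice with both libraries, 6 of 8 tested genes were higher on the injured side, namely Lcn2, Serpina3n, Timp1, S1pr3, Cd44 and Aspg, against 4.58% of all genes called in either direction and 2.46% called higher. Serpina3n and Cd44 also passed adjustment over the 10695 genes tested, which 19 genes in all did (0.178%). Lcn2 had the highest log2 difference of all genes tested.

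**Figure D3:**
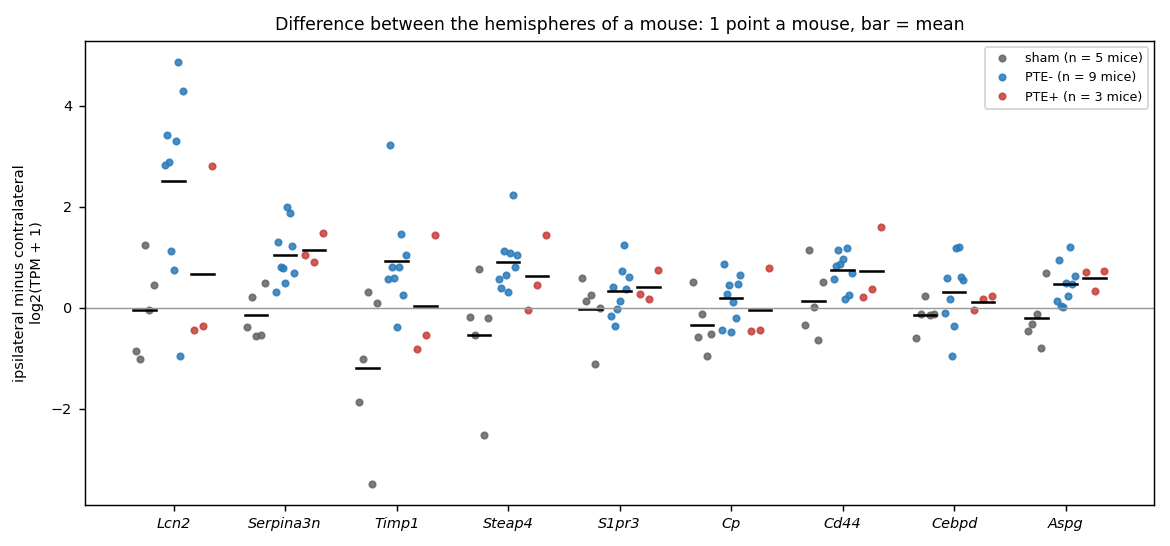
Ipsilateral minus contralateral difference in log2(TPM + 1) of the 9 genes in each mouse with both libraries (5 sham, 9 PTE-, 3 PTE+). Points are mice and bars are group means. Serpina3n, Cd44 and Aspg lay above 0 in 12 of 12 CCI mice, while the sham mice lay on both sides of 0.

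Serpina3n was higher on the injured side in 12 of 12 CCI mice, by between 0.31 and 1.99 on the log2 scale with a median of 0.98. The mean difference was 1.08 (SE 0.13), with an adjusted limma p of 0.000403. It was 1.05 in PTE- mice and 1.14 in PTE+ mice. Cd44 was higher in 12 of 12 mice as well, by between 0.17 and 1.59, with a mean of 0.73 (SE 0.15, adjusted limma p = 0.0426). Aspg was higher in 12 of 12 mice by between 0.02 and 1.197, with a mean of 0.49 (SE 0.12, adjusted limma p = 0.0954). The exact permutation p of these 3 genes was 0.000488, the smallest that 12 pairs allow.

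Lcn2 was higher on the injured side in 9 of 12 CCI mice, with differences from -0.96 to 4.86 and a median of 2.81. Its mean of 2.04 (SE 0.44) had an adjusted limma p of 0.0644 and an exact permutation p of 0.00781. The direction was upward in 8 of 9 PTE- mice (mean 2.50) and in 1 of 3 PTE+ mice (mean 0.67), a contrast that was not tested. Timp1 was also higher in 9 of 12 mice (mean 0.70, SE 0.32, adjusted limma p = 0.512, exact permutation p = 0.0356), and its call was lost when PTE- mouse 8_11, 8_13, 9_13, 9_15 or 9_20 or PTE+ mouse 9_18 was left out (0.47 to 0.69). Steap4, below the filter, was higher in 11 of 12 mice by a mean of 0.84 (exact permutation p = 0.000977). The differences of Lcn2 and Timp1 thus spread from below 0 to several log2 units, whereas those of Serpina3n, Cd44 and Aspg kept one sign.

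S1pr3 was higher in 9 of 12 CCI mice (mean 0.34, SE 0.13, adjusted limma p = 0.424, exact permutation p = 0.0195). Within mouse names starting with 8 its mean difference was 0.02, and within those starting with 9 it was 0.57. Its call was lost without PTE- mouse 9_15 (0.26). Cp and Cebpd were higher in 7 and 8 of 12 mice, with means of 0.13 and 0.27, and were not called.

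In the 5 sham mice, 1 of 8 genes was called between hemispheres, against 9.04% of all genes called and 8.53% called lower. It was Timp1, lower on the ipsilateral side by a mean log2 difference of -1.19 in 3 of 5 mice, with an exact permutation p of 0.25 where 5 pairs cannot give less than 0.0625. The call was lost without sham mice 8_16 and 9_10 (-0.48). In the same comparison 4 of 11 meningeal and fibroblast markers (Lum, Slc47a1, Prg4 and Foxc1) were lower on the ipsilateral side, and their part in the Timp1 value was not tested.

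The hemispheric differences of CCI and sham mice were compared directly. Of the 8 tested genes 5 had a higher difference in CCI mice, against 6.5% of all genes called and 5.9% called higher, and the median of all genes was 0.08. The difference of differences was 1.23 for Serpina3n (SE 0.24, exact permutation p = 0.000485), 0.70 for Aspg (SE 0.22, exact permutation p = 0.00824), 1.89 for Timp1 (SE 0.58, exact permutation p = 0.00792) and 2.09 for Lcn2 (SE 0.81, exact permutation p = 0.0423). Cd44, at 0.59 (SE 0.27), was called by limma and had an exact permutation p of 0.0533. Steap4 was not tested by limma and had a difference of 1.37 (exact permutation p = 0.00242), and S1pr3, Cp and Cebpd were not called (0.38, 0.47 and 0.42). No gene of the table passed adjustment (limma, smallest adjusted p of these genes 0.31). Without sham mice 8_16 and 9_10, Serpina3n (1.22) and Cd44 (0.67) were called and Lcn2 (1.77), Timp1 (1.18) and Aspg (0.46) were not. The Lcn2 call was lost without sham mouse 8_16 alone (1.85), and the Cd44 call without any of 9 single mice (0.40 to 0.58). Of the genes called, 90.8% were higher, compared with 37.0% when each library was centred on its median. Of the meningeal and fibroblast markers 2 of 11 had a higher difference in CCI mice as well, Slc47a1 (2.70) and Prg4 (1.39), and their part in these values was not tested.

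**Figure D4:**
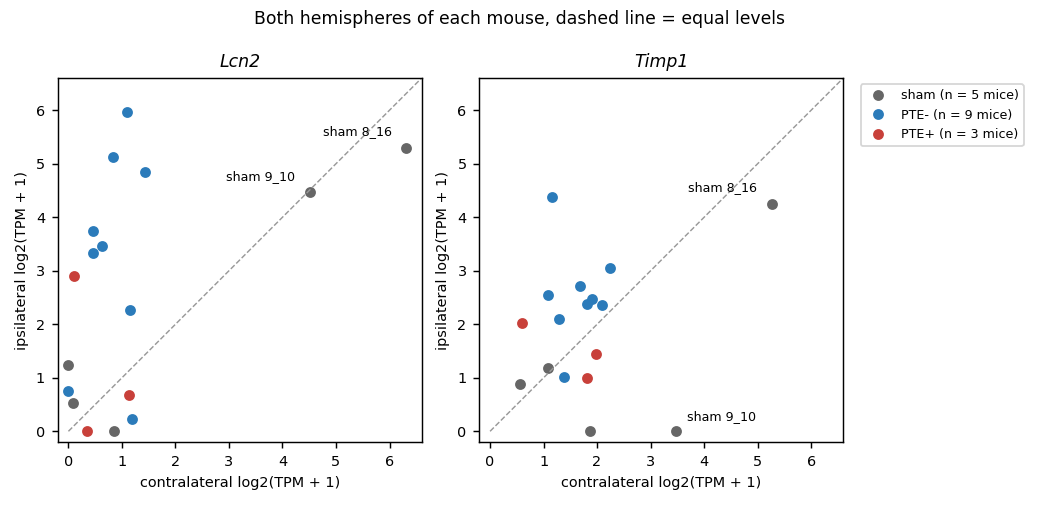
Ipsilateral against contralateral levels of Lcn2 and Timp1, on the log2 scale, in each mouse with both libraries (sham, PTE- and PTE+). Points are mice and the dashed line marks equal levels on both sides. Sham mouse 8_16 held 38.3 TPM of Lcn2 ipsilaterally and 78.6 TPM contralaterally, whereas no contralateral library of an injured mouse exceeded 1.69 TPM.

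Genes related to the 9 by function were counted in the same fits, where 1.62% of all genes were called between ipsilateral CCI and sham. Of the other pan-reactive genes, 2 of 4 tested were higher in ipsilateral CCI than in sham, Gfap (653 against 273 TPM, log2 difference 1.18) and Vim (0.95), both intermediate filament genes. Of genes raised in astrocytes by endotoxin 0 of 10 were called, and of those raised by ischaemia 0 of 5. Between ipsilateral PTE+ and sham, with 1.56% of all genes called, 2 of 10 of the endotoxin list were higher (C3, 1.44, and Ggta1, 0.66) and 0 of 5 of the ischaemia list. C3 passed the filter only through the PTE+ mice (9.14 TPM against 2.41 TPM in sham). Between all CCI mice and sham, 1 of 10 genes of the IL-6 and STAT3 pathway was higher, the cytokine gene Cntf (2.19), and 0 of 10 NF-kB genes and 0 of 3 C/EBP family genes were called. The median log2 difference was 0.01 for the IL-6 and STAT3 list and -0.002 for the NF-kB list, compared with -0.01 for all genes.

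Partners of single genes mostly gave no call in the ipsilateral comparison with sham. Of the genes that handle iron 1 of 11 was higher (Hmox1, 0.41), and of those in sphingosine 1-phosphate signalling 1 of 8 was lower (S1pr5, -0.86). S1pr5, a receptor known from oligodendrocytes, passed the filter only through the sham mice (5.35 TPM against 1.93 TPM in CCI). The part of oligodendrocytes in its value was not tested. Of metalloproteinases and TIMPs 0 of 7 were called in CCI against sham, and 2 of 8 were higher in PTE+ against sham (Mmp2, 1.23, and Mmp14, 0.64). Mmp2 passed the filter only through the PTE+ mice (5.995 TPM against 1.77 TPM in sham). In CCI against sham, 0 of 6 hyaluronan genes and CD44 ligands and 0 of 4 genes of asparagine metabolism were called. None of the 9 Serpina3 paralogues in the files passed the filter in that comparison. These paralogues are close in sequence, and how the read estimation divided reads between them and Serpina3n is uncertain.

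The same lists were counted in the paired comparison of the hemispheres of CCI mice, where 4.58% of all genes were called. Gfap (1.21, adjusted limma p = 0.00218), Vim (0.51) and Cxcl10 (0.72) were higher, 3 of 4 tested. Of the endotoxin list 2 of 10 were higher, C3 (1.52, adjusted limma p = 0.0168) and Ggta1 (0.52), and 1 was lower (Srgn, -0.31), while 2 of 5 of the ischaemia list were higher (Ptx3, 0.44, and Cd14, 0.55). Of the IL-6 and STAT3 list 3 of 10 were higher, including Cntf (1.98, adjusted limma p = 0.00183). The NF-kB list had 1 of 10 higher (Relb, 0.30) and the C/EBP family 0 of 3. Among the partners, Heph (0.37), Hmox1 (0.29), Serpina3i (1.10) and Asns (0.43) were higher and Tfrc (-0.54) and S1pr5 (-0.63) were lower, and 0 of 7 metalloproteinase genes and 0 of 6 hyaluronan genes were called. Markers of oligodendrocytes (5 of 10) and endothelium (6 of 11) were lower on the injured side, as were 2 of 10 mural markers. Higher on the injured side were 3 of 7 oligodendrocyte precursor markers (Matn4, 1.14, C1ql1, 0.52, and Sox10, 0.46), while Olig2 was lower (-0.45). Also higher were 1 of 4 choroid plexus markers (Aqp1, 1.33) and 1 of 11 meningeal and fibroblast markers (Slc47a1, 1.14). The part of these cells in the results of the 9 genes was not tested. Between PTE+ and PTE- in the ipsilateral cortex, where 0.573% of all genes were called, none of the genes in these function lists was called. In that comparison 4 of 8 tested immediate early genes (Fos, Junb, Egr1 and Ier2) were lower in PTE+. So were 2 of 4 tested erythrocyte markers (Hbb-bt and Hba-a1). Contralaterally, where 2.79% of all genes were called between PTE+ and PTE-, the function lists gave Slc40a1 (0.91), Sgpp2 (0.95), Spns2 (0.81) and Asns (0.77), all higher. Sgpp2, Spns2 and Asns passed the filter only through the PTE+ mice.

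For each gene the genes most like it were found by the Spearman correlation across the 19 ipsilateral and the 18 contralateral libraries, taking the lower of both among 13104 genes. The correlations describe libraries that share groups and mice. S1pr3 had the closest companions, Pald1 (0.86 and 0.92), Gprc5c (0.85 and 0.83) and Atp13a5 (0.87 and 0.83). Cd44 was closest to Sp3 (0.82 and 0.87), Rfx4 and Dkk3, and Timp1 to Mmp3 (0.90 and 0.76), Dydc2 and Emb. Mmp3 was also among the genes closest to Lcn2 (0.63 and 0.55), after Alox5ap (0.58 and 0.56) and before Map3k7cl. Cebpd was closest to St8sia5 (0.75 and 0.73), Arhgef16 and Mdk, and Arhgef16 was also the gene closest to Serpina3n (0.65 and 0.66), followed by Mgst1 and Apod. Cp was closest to Birc3 (0.85 and 0.66), Pcolce and Fbln5, Steap4 to Tmem86b (0.70 and 0.63), Chd2 and Chek1, and Aspg to Tmem176b (0.59 and 0.57), Tspan6 and Ifit1.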

How the data were processed

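RNA of ACSA-2-selected cortical astrocytes was amplified with SMART-Seq v4 and sequenced. The authors trimmed reads with Trim Galore 0.6.4 and estimated expression with RSEM 1.2.28 and Bowtie2 2.4.1 on mm10, and the submitters' processing notes also name DESeq2 1.36.0. The deposited values are TPM per Ensembl gene, 1 table per hemisphere, with 37 library columns. Per its methods, the study excluded 1 PTE+ animal for low correlation and 1 PTE- animal for lack of sequencing data. Replicates were separate mice.

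From TPM, log2(TPM + 1) was fitted with limma 3.58.1 (R 4.3.3, intensity trend). Genes were tested if their mean exceeded 5 TPM in 1 or more of the groups compared. The paired comparisons held sham and CCI mice in 1 fit, with the filter on the means of both groups in both hemispheres. A gene could thus enter the comparison of the CCI hemispheres through sham mice alone, and the reverse. A gene could therefore pass through the group where it is high alone. Lcn2 did so contralaterally (20.2 TPM in sham, 0.69 TPM in CCI), and Cntf ipsilaterally (12.6 TPM in CCI, 1.81 TPM in sham). A call was an unadjusted p under 0.05 with a fold of at least 1.2, and adjusted p-values are Benjamini-Hochberg over all genes tested. Fold changes on this scale understate changes of low genes. The study tested counts, which TPM are not. Each hemisphere was tested within its own table except in the paired comparisons. Single genes were tested by two-sided exact permutation (Python 3.11.15, numpy 2.4.6). Hemispheres were compared with the mouse as a block, the pairing coming from the mouse name in the labels. Deviations of both libraries of a mouse had a median correlation of 0.43 (range 0.0078 to 0.70) over 10065 genes, above 0.1 in 16 of 17 mice.

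The genes and lists were chosen with earlier results of these data known. Named genes are the 9 genes, listed genes that were called, and for each of the 9 the 3 genes with the highest lower Spearman correlation among genes with a mean above 1 TPM in both tables. Alternatives were a pseudocount of 0.1, filters of none and 1 TPM, a fold of 1.5, quantile scaling, median centring, array weights, the first number of the mouse name as covariate, fits without the block and without single libraries. Leaving out sham mice 8_16 and 9_10 was chosen after seeing the data. On simulated data for ipsilateral CCI against sham, 80% of 100 genes changed by a fold of 2 were called. For ipsilateral PTE+ against PTE- this was 72% at a fold of 2 and 54% at 1.5. For ipsilateral PTE- against sham it was 68% and 59%. Of the genes left unchanged there, 5.0%, 5.09% and 5.06% had an unadjusted limma p under 0.05, in the order of comparisons given. In the measured libraries 1.87%, 0.60% and 1.65% of all genes tested had such a p. The share of genes called at a given fold in the measured libraries was not tested.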

Additional observations from a re-analysis of the deposited data

Results flagged for a closer look

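In 54 sets of 4 to 10 libraries (9 genes, 6 groups), 6 had a highest library separated from the others by more than Dixon's 95% limit, and chance flags about 1 in 20 groups. Sham mouse 8_16 was the separated library in 3 of them, for Lcn2 in the contralateral cortex (78.6 TPM) and for Timp1 in the ipsilateral (17.97 TPM) and contralateral cortex (37.4 TPM). Timp1 was also separated in ipsilateral PTE- mouse 8_11 (19.7 TPM). Serpina3n was separated in contralateral sham mouse 9_9 (151 TPM) and S1pr3 in contralateral sham mouse 9_11 (69.1 TPM).

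The difference between hemispheres differed between CCI and sham mice, by the limma test of that difference at an unadjusted p under 0.05, for Lcn2 (2.09), Serpina3n (1.23), Timp1 (1.89), Cd44 (0.59) and Aspg (0.70), all higher in CCI on the log2 scale.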

How the results depend on the processing

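Leaving out each library in turn kept the calls of Serpina3n (0.74 to 1.10), Cd44 (0.69 to 1.09) and Aspg (0.61 to 0.82) between ipsilateral CCI and sham, and of Serpina3n (0.99 to 1.14), Cd44 (0.66 to 0.79) and Aspg (0.43 to 0.54) between the hemispheres of CCI mice. The number of genes called ranged under these omissions from 0 to 4 for ipsilateral PTE+ against sham, 0 to 2 for contralateral CCI and PTE- against sham and for the sham hemispheres, and 0 to 1 for contralateral PTE+ against sham and against PTE-. Estimates that crossed 0 under them, none of them called in the main comparison, were, for ipsilateral CCI against sham, Lcn2 (-0.30 to 1.02), Steap4 (-0.035 to 0.51) and Cebpd (-0.10 to 0.14); for ipsilateral PTE+ against PTE-, Steap4 (-0.16 to 0.30), Cp (-0.19 to 0.15) and Aspg (-0.17 to 0.13); for contralateral CCI against sham, S1pr3 (-0.20 to 0.29), Cd44 (-0.23 to 0.39) and Aspg (-0.14 to 0.10); and for contralateral PTE+ against PTE-, Steap4 (-0.51 to 0.040), S1pr3 (-0.13 to 0.21), Cp (-0.60 to 0.12), Cd44 (-0.12 to 0.21) and Cebpd (-0.21 to 0.030). Without sham mice 8_16 and 9_10 the genes called numbered 1 for ipsilateral PTE+ against sham, 0 for contralateral CCI against sham, 0 for the sham hemispheres and 2 for the difference of differences. Then Cebpd was at -0.064 and Steap4 at -0.13 ipsilaterally (CCI against sham). Contralateral CCI against sham then gave Lcn2 0.37, Timp1 0.34, Cd44 -0.054 and Aspg 0.23. Array weights gave 0 calls for contralateral CCI against sham and for the sham hemispheres, 2 for contralateral PTE+ against sham and against PTE-, Cebpd -0.072 (ipsilateral CCI against sham), Cd44 -0.076 and Aspg 0.010 (contralateral CCI against sham), and S1pr3 -0.19 and Cp 0.040 (contralateral PTE+ against PTE-). Quantile scaling and median centring gave 0 calls for contralateral PTE+ against sham, Cp -0.088 and -0.073 and Aspg -0.067 and -0.060 (ipsilateral PTE+ against PTE-), S1pr3 0.021 and 0.048 and Aspg 0.12 and 0.087 (contralateral CCI against sham), and Cd44 -0.039 and -0.00017 (contralateral PTE+ against PTE-). With the name number as covariate Cp was at -0.059 and Aspg at -0.0087 (ipsilateral PTE+ against PTE-). A pseudocount of 0.1 gave 0 calls for contralateral CCI against sham and 3 for the difference of differences. Without a filter there were 2 calls for contralateral CCI and PTE+ against sham and 1 for PTE-, with a filter of 1 TPM 2 for CCI and 1 for PTE-, and with a fold of 1.5 there were 0 for PTE+. The cause of these changes was not tested.

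Without the replicate block, 0 genes were called between the sham hemispheres, 4 between those of CCI mice (Timp1 and S1pr3 lost) and 3 for the difference of differences (Lcn2 and Cd44 lost). No paired analysis was possible within a hemisphere because its groups hold different mice. Over all genes and alternatives, calls ranged from 89 to 843 for ipsilateral CCI against sham (169 as reported), 95 to 650 for PTE- (161) and 83 to 1221 for PTE+ (163), 23 to 441 for ipsilateral PTE+ against PTE- (60), 70 to 883 for contralateral CCI against sham (428), 88 to 861 for PTE- (397) and 100 to 1114 for PTE+ (210), 118 to 828 for contralateral PTE+ against PTE- (291), 131 to 1405 for the sham hemispheres (967), 76 to 990 for the CCI hemispheres (490) and 197 to 1126 for the difference of differences (695). Median centring moved the share of calls that were higher from 76.3% to 65% for ipsilateral CCI against sham 76.1% to 51% for PTE+ against sham and 56.7% to 28% for PTE+ against PTE-, and contralaterally from 13.3% to 62.2% for CCI, 12.9% to 73.4% for PTE- and 25.2% to 36.1% for PTE+ against sham and 69.8% to 41% for PTE+ against PTE-, and from 5.69% to 61.1% for the sham hemispheres. Quantile scaling moved it from 76.4% to 65.1% for ipsilateral PTE- against sham.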
